A study of Mus musculus with 7 samples.

Results

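The nuclei described here were Slc47a1+ nuclei, offered under the label of arachnoid barrier cells, in single-nucleus RNA sequencing of the posterolateral cortical amygdala (plCoA) of the mouse. They were chosen by their counts of unique molecular identifiers (UMIs): at least 2 UMIs of Slc47a1 and more of Slc47a1 than of Slc6a13, at most 1 UMI in all of Slc17a7, Slc17a6, Gad1 and Gad2, and none of Csf1r. Of 51115 nuclei (barcodes with at least 1000 genes and at most 30000 UMIs), 869 met this rule, 1.70% of the total. They were set against 1762 leptomeningeal nuclei (3.45%), which had at least 3 UMIs of Slc6a13, Col1a2 and Col1a1 together and at most 1 of Slc47a1, and against the nuclei of neither class. Values of the genes in these rules are given as a description, with no test.

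The nuclei came from male C57BL6J mice of 8 weeks, and the groups were the anterior (aplCoA) and the posterior (pplCoA) domain. The mice were housed alone and deprived of sensory input for 24 h, then perfused and dissected, and frozen tissue of several mice was pooled before nuclei were isolated and sorted by DRAQ7, a DNA dye. Of 7 libraries, 4 were of aplCoA and 3 of pplCoA, and the 2 libraries of aplCoA replicate 1 were summed, which gave 3 replicates of each domain. A replicate was thus a pool of animals, and a p-value measured the spread between pools. Library totals ran from 50812605 to 129624583 UMIs. Pairs of libraries shared 5 to 36 nuclear barcodes, and 0 of the barcodes of Slc47a1+ nuclei occurred in more than 1 library.

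The arachnoid is the middle layer of the meninges, the membranes around the brain. Its outermost cells form a barrier: they are joined by tight junctions, separate the cerebrospinal fluid below from the leaky vessels of the dura above, and carry transporters that export drugs and metabolites. The deeper arachnoid and the pia are made of fibroblasts that lay down collagen and laminin, take up solutes and release proteins into the fluid. Slc47a1 encodes MATE1, which exports organic cations in exchange for protons.

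The label was checked against 10 genes listed for arachnoid barrier identity, and the picture was mixed. Cdh1 (E-cadherin) and Abcg2 (a drug efflux pump) were high, whereas the epithelial keratins Krt8 and Krt18 were at 0 UMIs in all 869 nuclei, which allows a level of up to 0.756 CPM (UMIs of a gene per 1000000 UMIs of the class), and Krt19 had 20 UMIs. Dpp4, a surface peptidase often used to mark these cells, and Cldn11, a tight junction protein, were at low levels. A second set of 202 nuclei, all outside the leptomeningeal class, was chosen on Dpp4. They had at least 2 Dpp4 UMIs, at most 1 of Slc47a1, 0 of Slc6a13 and the same limits on neurons and Csf1r. These Dpp4 nuclei were defined after the values were seen and were not tested. That choice fixed their high Dpp4 and limited their Slc47a1, Slc6a13, Col1a2 and Col1a1. Pooled over replicates, Dpp4 stood at 73.3 CPM in Slc47a1+ nuclei, 1166 in Dpp4 nuclei and 24.2 in leptomeningeal nuclei. For Cldn11 the same 3 levels were 70.8, 455 and 21.2 CPM, and for Dapl1, a gene of epithelial differentiation, 16.6, 386 and 1.64 CPM. Ptgds, the prostaglandin D synthase of cerebrospinal fluid, stood at 571, 4293 and 23732 CPM. Abcg2 went the other way, with 607 CPM in Slc47a1+ nuclei, 206 in Dpp4 nuclei and 57.6 in leptomeningeal nuclei. Cdh1 and Klf5 were also higher in Dpp4 nuclei, at 537 and 234 CPM against 372 and 136 in Slc47a1+ nuclei, and the 3 keratins were at 0 UMIs in Dpp4 nuclei too. The Dpp4 nuclei numbered only 15 to 72 per replicate, over which Cldn11 ran from 196 to 610 CPM and Ptgds from 968 to 5686. Their summed markers of oligodendrocyte precursors ran from 24.4 to 2344 CPM, of neurons from 140 to 1333 and of endothelial cells from 12.1 to 463. The part of other cell types in the levels of this set was not tested. The nuclei are called by their rule, Slc47a1+, in what follows.

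**Figure D1:**
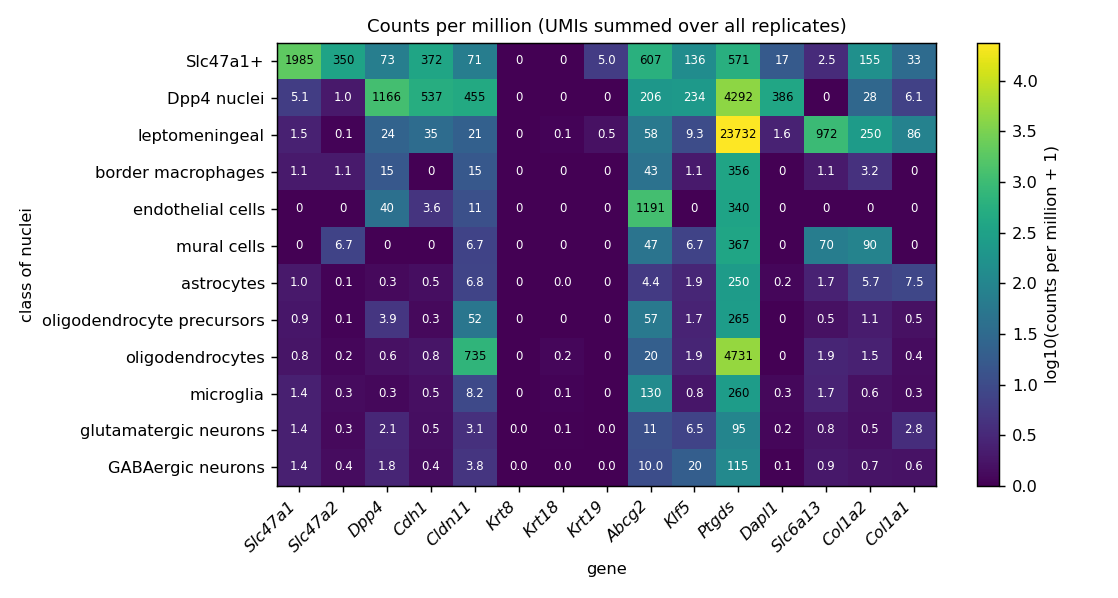
Level of 15 genes (columns) in 12 classes of nuclei (rows), in CPM from UMIs summed over the 6 replicates; colour shows log10(CPM + 1) and each cell prints the level. Slc47a1 (1985) and Slc47a2 (350) stand out in the top row, while Dpp4 (1166), Cldn11 (455) and Dapl1 (386) are higher in the Dpp4 nuclei than in the Slc47a1+ and leptomeningeal nuclei.

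Of the 10 listed genes, 6 were seen in at least 10% of nuclei of a class and so could be tested, 5 of them were higher than in leptomeningeal nuclei and 1, Ptgds, was lower (of all genes tested, 16.1% were called higher and 19.7% lower). Cdh1 ran from 294 to 467 CPM over the 6 replicates (median 378), against 20.2 to 65.3 (median 33.7) in leptomeningeal nuclei. Klf5, an epithelial transcription factor, ran from 109 to 194 CPM (median 144) against 2.93 to 13.5 (median 7.02). In neither gene did the classes overlap in any replicate. The fold was 10.2 for Cdh1 (log2 3.35, SE 0.146) and 15.5 for Klf5 (log2 3.96, SE 0.223), with adjusted p of 1.1e-09 and 8.9e-09 (edgeR's quasi-likelihood test, Benjamini-Hochberg). Dpp4 ran from 45.5 to 119.6 CPM against 5.45 to 36.8, a 3.12-fold difference. Against the nuclei of neither class, all 6 tested genes were higher, as were 22.3% of all genes.

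The median Slc47a1+ nucleus had 8 UMIs of Slc47a1, the highest had 34, and 336 nuclei (38.7%) had 10 or more. Slc47a1 (chromosome 11, 61343401 to 61378345, minus strand, GRCm38) ran from 1894 to 2250.5 CPM over the replicates. Just inside the threshold, the 71 nuclei with exactly 2 UMIs had 4912 CPM of Slc4a10, 375 of Cdh1 and 550 of Abcg2, genes that the rule did not use. Just outside it, the 123 nuclei with exactly 1 UMI that met the other terms of the rule had 1210, 53.1 and 162 CPM of the same genes. Of 955 nuclei with at least 2 Slc47a1 UMIs, 86 were left out by the other terms, 63 of them for neuronal UMIs and 27 for Csf1r. Leptomeningeal nuclei had a Slc47a1 UMI in 0.795% of cases (median 3927.5 UMIs per nucleus) and glutamatergic neurons, which should lack the gene, in 0.748% (median 12192). Thinned to 2000 UMIs per nucleus, the share with a Slc47a1 UMI was 95.1% of 835 Slc47a1+ nuclei and 0.426% of 1643 leptomeningeal nuclei. Free RNA, taken from barcodes with fewer than 100 UMIs, held 9.48 to 24.0 CPM of Slc47a1.

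Among clusters of all nuclei, 819 of the 869 (94.2%) fell in a single cluster of 912, 18 fell in a cluster of 227 that was rich in Dpp4 and also carried arachnoid markers, and 23 in a cluster named by neuronal markers. Of the 50 nuclei outside the main cluster, 35 were marked as doublets by their score, against 0 within it. Doublet scores marked 4.03% of Slc47a1+ nuclei, 8.12% of leptomeningeal nuclei and 8.24% of all nuclei. The number marked in each library was fixed in advance by its count of nuclei, at 1% per 1000 nuclei. The share over all nuclei is therefore not a measured rate of doublets. The limits on neuronal and Csf1r UMIs applied to Slc47a1+ nuclei only and could leave out doublets, so these shares are no comparison of quality. Markers of other cell types were present to different degrees: of the mural markers 3 of 5 were at 0, of the border macrophage markers 2 of 5 and of the choroid plexus and ependymal markers 2 of 6. Over replicates, the summed astrocyte markers ran from 177 to 292 CPM, against 979 in astrocytes and 156 to 274 in leptomeningeal nuclei. Within the main cluster the astrocyte sum ran from 194 to 305.5 CPM. It includes Gja1, which is also among the junction genes listed here, and the source of this RNA was not tested. In all Slc47a1+ nuclei, summed markers of oligodendrocyte precursors ran from 41.6 to 508 CPM, against 9496 in those cells. The 5 general neuronal markers ran from 127 to 683 CPM. Slc47a1+ nuclei held a median of 4024 UMIs from 1954 genes. Their depth lay near that of leptomeningeal nuclei: medians taken in each replicate averaged 4039 ± 546 and 3916 ± 453 UMIs (SD, n = 6 each). The difference of 123 UMIs was smaller than the spread and was positive in 4 replicates (p = 0.281 by an exact permutation test of pairs, two-sided, where 0.03125 is the smallest p possible).

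Slc47a1+ nuclei made up a larger share of nuclei in aplCoA than in pplCoA. The shares were 2.18%, 1.65% and 2.96% in the 3 aplCoA replicates (346, 69 and 300 nuclei) and 0.639%, 0.756% and 0.884% in the 3 pplCoA replicates (62, 43 and 49 nuclei). Every aplCoA replicate thus lay above every pplCoA replicate, also by counting error, since the lowest aplCoA share had a 95% Wilson interval of 1.30% to 2.08% and the highest pplCoA share one of 0.669% to 1.17%. Such intervals cover counting error only. The means were 2.26 ± 0.658% and 0.760 ± 0.122% (SD, n = 3 each), a 2.98-fold difference. On the logit scale it was 1.08 (SE 0.188; limma, p = 0.000899, adjusted p = 0.0108 over 12 classes), and the exact permutation test gave p = 0.1, the smallest that 3 against 3 allow. Without pplCoA replicate 2 the limma call was lost, at an adjusted p of 0.0548 and a difference of 1.08.

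Leptomeningeal nuclei stood at 2.63%, 7.52% and 5.43% in aplCoA and 2.06%, 2.41% and 2.56% in pplCoA. These shares did not overlap either, except with library 1 of aplCoA replicate 1 alone. In the main fit the logit difference was 0.74 and was not called (SE 0.281, limma, adjusted p = 0.0729). It became a call with the replicate block (limma, adjusted p = 0.0488), with library 2 alone (0.0333) and without aplCoA replicate 1 (0.0116). Border macrophages, which live in the same membranes, had a logit difference of 0.72 (limma, adjusted p = 0.0182). Microglia (-0.41) and oligodendrocyte precursors (-0.52) had lower shares in aplCoA (limma, adjusted p = 0.0329 each), and the shares of all classes sum to a whole. How much of the membranes each pool held was not measured, so more meningeal cells in the tissue and more membrane left on it cannot be told apart. The share of Slc47a1+ nuclei among both meningeal classes was 45.3%, 18.0% and 35.3% in aplCoA and 23.7%, 23.9% and 25.7% in pplCoA. These values overlapped: the means were 32.9 ± 13.8% and 24.4 ± 1.09% (SD, n = 3 each), a difference of 8.45 percentage points within the spread of aplCoA (exact permutation test, two-sided, p = 0.4). It was 2.21 points without aplCoA replicate 1 and 15.9 without aplCoA replicate 2.

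**Figure D2:**
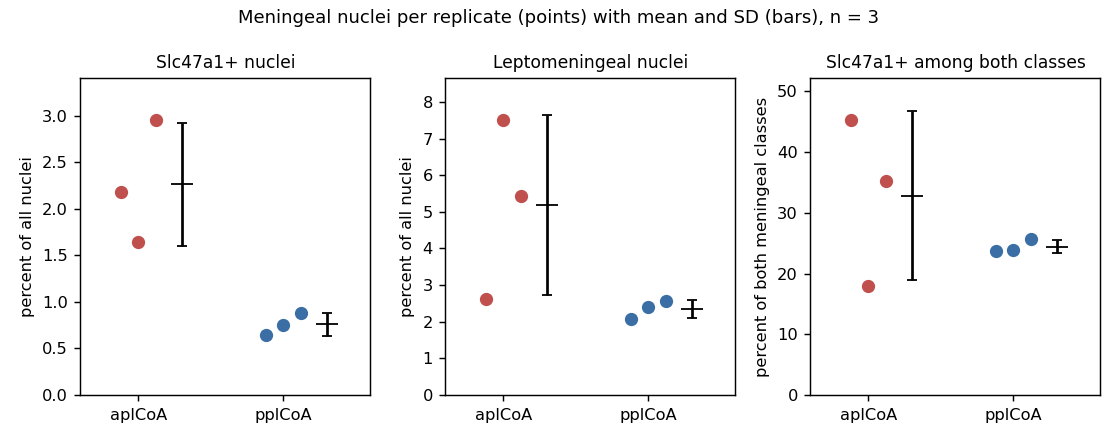
Share of Slc47a1+ nuclei (left) and of leptomeningeal nuclei (middle) among all nuclei, and of Slc47a1+ nuclei among both meningeal classes (right), in percent; points are the 3 replicates of aplCoA and of pplCoA, and bars give the mean and SD. The domains do not overlap in the left and middle panels (2.26 against 0.760% and 5.19 against 2.34% on average) and overlap in the right panel.

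To ask how Slc47a1+ nuclei differed from the fibroblast class of the same membranes, counts were summed per class and replicate and compared within replicates. Of 7190 genes seen in at least 10% of nuclei of a class, 2576 (35.8%) passed an adjusted p under 0.01 and a fold of at least 1.5 in edgeR's quasi-likelihood test, 1157 (16.1%) higher and 1419 (19.7%) lower in Slc47a1+ nuclei. Of these, 2269 had the same direction in all 6 replicates. The limits on neuronal and Csf1r UMIs applied to Slc47a1+ nuclei and not to leptomeningeal nuclei. With the same limits on both classes, 2445 of 6845 genes were called, 1115 higher and 1330 lower. Of these calls, 2093 were also made in the main fit. Against the nuclei of neither class, 4794 of 9022 genes (53.1%) were called, 2011 (22.3%) higher and 2783 (30.8%) lower. That comparison was sensitive to scaling: the median of all genes was -0.09 on the log2 scale by TMM, with 41.9% of calls higher, and 0.11 by total counts, with 51.8% higher. In all, 944 genes were higher than in both other groups, and 213 were higher than in leptomeningeal nuclei alone.

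The genes that rose most against leptomeningeal nuclei included Slc47a2, the second MATE exporter, which lies 540 bases downstream of Slc47a1 on the same strand (chromosome 11, 61301631 to 61342860). Slc47a2 stood at 266 to 507 CPM (median 380.1) in Slc47a1+ nuclei, with 1390 UMIs in all, and had 1 UMI in leptomeningeal nuclei, a ratio of levels of 3202 with a 95% counting interval of 574 to 126575. Since the 2 genes are close relatives and neighbours, and the rule selected on Slc47a1, reads placed in the wrong gene of the pair cannot be told from Slc47a2 itself. Slc47a2 was seen in 60.6% of Slc47a1+ nuclei, and in 44.0% after thinning to 2000 UMIs.

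Slc26a7, a chloride and bicarbonate exchanger, stood at 564 to 890.3 CPM (median 650.3) against 0 to 2.24 (log2 9.57, SE 0.299, edgeR, adjusted p = 1.29e-10). Adamtsl3, a secreted glycoprotein of the matrix, stood at 1572 to 2739 CPM (median 2186) against 0 to 10.8 (log2 8.78). Piezo2, a channel opened by mechanical force, stood at 905 to 1189 CPM (median 938) against 2.35 to 7.48 (log2 7.63). In all 3 genes the lowest Slc47a1+ replicate lay far above the highest leptomeningeal one. Tspan11, a tetraspanin of the cell surface (median 376 against 0.667 CPM), and Vsx1, a homeobox factor known from the retina (median 63.0 CPM, 254 UMIs against 1), had the same pattern. Raet1e, a ligand of an activating receptor on natural killer cells (median 107 CPM, 540 UMIs against 5), overlaps the antisense gene Gm26740 (median 709 against 1.46 CPM), and the use of strand in counting is not given in the sources used here, so their reads may be shared. The other 4 of the 12 were noncoding genes, Gm49497, Gm6260, Gm37754 and Gm43581; the last 2 had 0 leptomeningeal UMIs and were at least 106-fold and 105-fold higher against a floor of 3 UMIs over the class.

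Of the 12 genes that fell most, 8 had no UMI in any of the 869 Slc47a1+ nuclei, and their folds are lower bounds against a floor of 3 UMIs over the class. Lamc3, a laminin chain, stood at 90.4 to 121 CPM (median 99.8) in leptomeningeal nuclei and was at least 137-fold lower in Slc47a1+ nuclei. Slc22a2, an organic cation transporter of the uptake type, was at least 88.4-fold lower, and Hs3st3b1, a heparan sulfate sulfotransferase, at least 80.3-fold. The noncoding gene Gm43464, the iodide symporter Slc5a5, the steroid dehydrogenase Hsd17b2, the transcription factor Tfap2b and the peptide hormone Edn3 completed this set, each at least 38.8-fold lower. Slc6a20a, a proline transporter, was at 1576 to 3122 CPM in leptomeningeal and 0 to 34.2 CPM in Slc47a1+ nuclei (log2 -8.31, edgeR, adjusted p = 1.44e-09). The dicarboxylate transporter Slc13a3, the collagen Col4a6 and the adhesion protein Svep1 had 4, 2 and 1 UMIs in Slc47a1+ nuclei, against 4461, 2098 and 1540.

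Transporters split almost evenly between the classes. Of 54 listed genes for solute and drug transport, 36 passed the filter, of which 16 were higher in Slc47a1+ nuclei, 17 lower and 3 not called (median log2 -0.15, against -0.00098 over all genes, of which 16.1% were higher and 19.7% lower). Because a gene could pass the filter through the class in which it was high, such counts describe the list and are no evidence on their own. The genes named next beyond the most abundant and most changed ones were picked after their values were seen.

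Of the listed drug efflux pumps, 3 are described here, all higher in Slc47a1+ nuclei. Other exporters on the list are not described, and the 3 do not stand for them. Abcb1a, P-glycoprotein, stood at 280.1 to 491 CPM (median 411) against 0.587 to 10.0 (median 2.04), a log2 difference of 6.82 (SE 0.295, edgeR, adjusted p = 9.55e-10). Abcc4, which exports organic anions, stood at 599 to 702 CPM (median 681) against 8.37 to 18.8 (log2 5.43, adjusted p = 6.17e-11). For Abcg2 the range was 357 to 719 CPM (median 622) against 27.8 to 72.7 (log2 3.46), and endothelial cells, the site of the blood-brain barrier, held 1191 CPM of it. None of the 3 pumps overlapped between the meningeal classes in any replicate.

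Among the solute carriers that were higher, Slc4a10, a sodium-coupled bicarbonate transporter of choroid plexus and neurons, was at 4723 to 7871 CPM (median 5395) against 27.0 to 108 (log2 6.35, edgeR, adjusted p = 4.97e-09), while free RNA held 196 to 257 CPM of it. Slc26a2, a sulfate carrier, was at 468 against 7.29 CPM (medians), and Slc16a1, the lactate carrier MCT1, at 128 against 0.293. Slc38a2, which takes up neutral amino acids, was at 2787 to 4315 CPM against 270.3 to 591, and Slc23a2, the vitamin C carrier, at 1491 to 2968 against 87.0 to 130.2. Slc4a4, another bicarbonate transporter, was higher by a smaller step, with ranges of 777 to 1331 and 426 to 878 CPM that overlapped between the classes (log2 0.83, edgeR, adjusted p = 0.000232).

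Other carriers were lower in Slc47a1+ nuclei. Slc1a3, a glutamate carrier, fell from a median of 1442 to 57.8 CPM (log2 -4.34, edgeR, adjusted p = 1.2e-07), and Slc7a11, the cystine carrier, from 1678 to 13.5 CPM. The organic anion carriers Slc22a8 (OAT3) and Slc22a6 (OAT1) were at medians of 434 and 156 CPM in leptomeningeal nuclei, and at 14.9 and 0.959 CPM in Slc47a1+ nuclei.

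**Figure D3:**
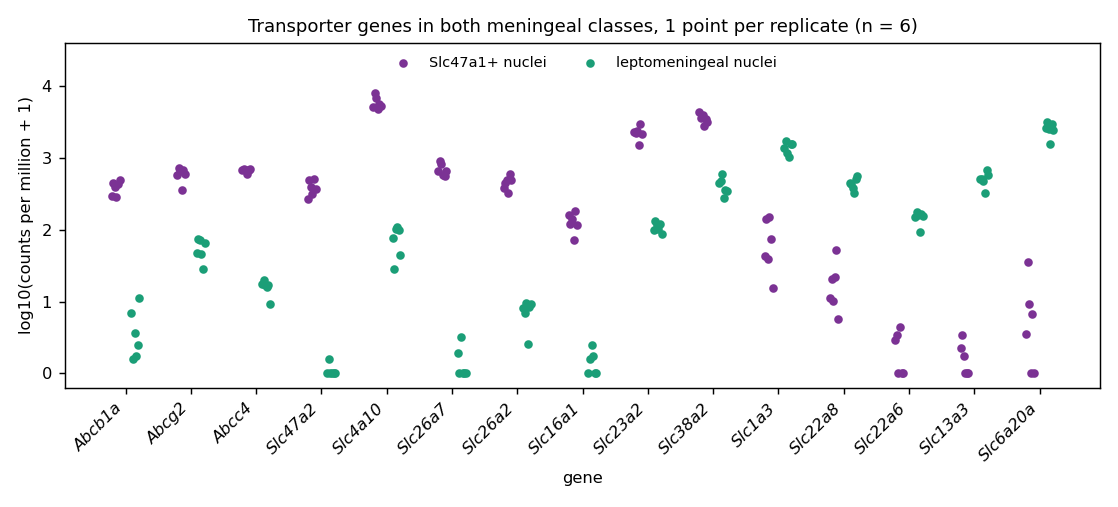
Level of 15 transporter genes as log10(CPM + 1), with 1 point for each of 6 replicates in Slc47a1+ (purple) and leptomeningeal nuclei (green). From Abcb1a to Slc38a2 the Slc47a1+ points lie above the leptomeningeal ones in every replicate, and from Slc1a3 to Slc6a20a they lie below.

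Junction genes were called in both directions. Of 41 listed, 20 passed the filter, 6 were higher than in leptomeningeal nuclei, 5 lower and 9 not called (median log2 0.23; 16.1% and 19.7% of all genes were called higher and lower), whereas 15 of 22 were higher than in the nuclei of neither class (22.3% of all genes). Cdh11, a mesenchymal cadherin, was at 664 to 1115 CPM (median 779) against 35.1 to 88.8 (log2 3.79, SE 0.198, edgeR, adjusted p = 4.7e-09). Cldn11 was at 45.6 to 98.0 CPM against 5.85 to 27.7 and Nectin3, an adhesion protein, at 56.9 to 88.1 against 15.1 to 30.7, and neither overlapped. Free RNA held 51.6 to 109 CPM of Cldn11, as much as the Slc47a1+ nuclei, and its part in that level was not tested. Tjp1, the scaffold ZO-1, was lower, at 285 to 409.6 CPM against 659 to 982 (log2 -1.11). Afdn and Pard3, scaffolds of adhesion and cell polarity, were abundant in both classes (medians 650.2 and 699 CPM in Slc47a1+ nuclei) and did not pass. Cldn5, the claudin of brain endothelium, had 3 UMIs in all Slc47a1+ nuclei.

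Matrix genes were mostly lower than in leptomeningeal nuclei, but those that were higher were abundant. Of 37 listed genes, 32 passed the filter, 7 were higher, 17 lower and 8 not called (median log2 -1.15), beside 16.1% and 19.7% of all genes. Against the nuclei of neither class 19 of 22 were higher, beside 22.3% of all genes. Col25a1, a membrane collagen, was at 2193 to 5078 CPM (median 2742) against 41.1 to 139 (log2 5.19, SE 0.317, edgeR, adjusted p = 1.86e-08). Col8a1, a short-chain collagen of basement membranes, was at 511 to 943 CPM against 4.39 to 17.6 (log2 6.32), and Fn1, fibronectin, at 445 to 792 against 4.67 to 40.8 (log2 4.71). Col23a1, another membrane collagen, was at a median of 972 against 143 CPM. Lama2, the laminin chain best known from muscle, was not called, with medians of 676 and 732 CPM and ranges that overlapped (log2 -0.22, SE 0.123). Lama1, a laminin chain of the pial basement membrane, had 6 UMIs in Slc47a1+ nuclei against 3442 (log2 -7.83, edgeR, adjusted p = 1.24e-09), and Col13a1 had 5 against 1243.

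Retinoic acid is made by leptomeningeal fibroblasts and acts on nuclear receptors. Aldh1a2, an enzyme that makes it, was at 380.1 to 613 CPM in leptomeningeal and 0 to 12.2 CPM in Slc47a1+ nuclei (log2 -6.85, edgeR, adjusted p = 6.5e-10). Cyp26b1, which breaks it down, had 1 UMI against 584. The receptor Rarb went the other way, at 374 to 758 CPM (median 462) against 192 to 274 (median 229), without overlap (log2 1.11). Stra6, a receptor for retinol uptake, and Dhrs3, a retinal reductase, were also higher (medians 41.5 against 6.66 and 65.9 against 26.9 CPM), and so was the partner receptor Rxra (34.1 against 11.4). Of 17 listed genes, 10 passed the filter, 5 were higher and 3 lower (median log2 0.60; all genes, 16.1% and 19.7%). Among the 8 calls, Aldh1a1 (lower) and Rarg (higher) missed the threshold under several settings, among them the fits without aplCoA replicate 1.

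Transcription factors of the meninges were found on both sides. Of 47 listed factors, 28 passed the filter, 11 were higher, 9 lower and 8 not called (median log2 -0.10), where 16.1% of all genes were higher and 19.7% lower. In all, 18 of 24 were higher than in the nuclei of neither class (22.3% of all genes). Foxp1 and Foxp2, forkhead factors, were at 5505 to 7196 and 2434 to 3669 CPM, against 914 to 1449.9 and 159.7 to 363 (log2 2.46 and 3.49). Bnc2, a zinc finger protein, was at a median of 4294 against 854 CPM, and the T-box factor Tbx15 at 1191 against 202. Klf4, a factor of barrier epithelia, stood at 45.5 to 254 CPM against 1.67 to 7.04 (log2 5.45, edgeR, adjusted p = 1.92e-09). Lef1, an effector of Wnt signalling, had 7 UMIs in Slc47a1+ nuclei against 1815. The meningeal factors Zic4 and Tbx18 overlapped between the classes, with medians of 273 and 168 CPM against 318 and 195, and were not called. Foxc1, which is needed for the meninges to form, missed the fold threshold (median 72.6 against 109 CPM, log2 -0.55).

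Secreted proteins were mostly lower, and the Wnt and BMP ligands went both ways. Of 21 listed proteins of cerebrospinal fluid, 13 passed the filter, 9 were lower and 3 higher (median log2 -3.78), against 19.7% and 16.1% of all genes. Ptgds was at 410.2 to 668 CPM against 14318 to 28205 (log2 -5.43, edgeR, adjusted p = 6.17e-11), and Igf2, insulin-like growth factor 2, had 12 UMIs against 1537. The 3 that were higher were Igfbp5, a binding protein of such growth factors (medians 650.1 against 24.2 CPM), Igfbp6 (63.1 against 21.5) and Ptgis, prostacyclin synthase (92.5 against 7.16). Of 32 listed genes of Wnt, BMP and TGF-beta signalling, 18 passed the filter, 8 were higher and 7 lower (median log2 0.34), against the same shares of all genes. The ligands Wnt4, Wnt5a, Wnt5b and Wnt6 were at means of 3.81, 2.60, 9.95 and 0.89 CPM in Slc47a1+ nuclei, against 103, 111, 202 and 68.2 in leptomeningeal nuclei. Wnt16 and Wnt9a were higher instead, at 35.6 and 52.4 against 2.43 and 9.72 CPM. The ligand Bmp5 was at 342 to 558 CPM against 78.9 to 134, whereas Bmp6 was at 420.1 to 859 against 1489 to 2559. Smad6, an inhibitor of BMP signalling, was at a median of 248 against 57.1 CPM (log2 2.28).

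Immediate early genes, which are switched on within minutes by many stimuli, were higher in Slc47a1+ nuclei. Of 14 listed genes, 8 passed the filter and 7 were called higher (median log2 2.76), and all 8 were higher than in the nuclei of neither class. Over all genes, 16.1% and 22.3% were called higher in these comparisons. Nr4a2, an orphan nuclear receptor, was at 154 to 487 CPM (median 404) against 2.93 to 7.85 (log2 5.84, SE 0.213, edgeR, adjusted p = 2.84e-10). Its relatives Nr4a3 and Nr4a1 were at medians of 159 and 107 CPM against 5.51 and 13.8, and the ranges of Nr4a3 overlapped. Fosl2, a partner of Jun, was at a median of 45.7 against 5.65 CPM. Fos and Jun varied more: Jun ran from 42.0 to 303 CPM and Fos from 0 to 138, and in both genes aplCoA replicate 1 was the highest. Egr1 ran from 0 to 198 CPM against 26.8 to 92.2, was not called, and changed sign between settings. Whether these levels arose in the animal or during dissection was not tested.

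Nuclear genes of oxidative phosphorylation were mostly lower than in leptomeningeal nuclei. Of 19 listed, 18 passed the filter, 12 were lower and 0 higher (median log2 -0.85), whereas 19.7% of all genes were lower and 16.1% higher. Cox4i1, a subunit of cytochrome c oxidase, was at 45.5 to 114 CPM against 109.8 to 182, which overlapped (log2 -0.93, edgeR, adjusted p = 5.89e-05), and Cox6c at 14.4 to 63.3 against 73.6 to 132, which did not. Against the nuclei of neither class, 1 of 17 tested was lower and 0 higher (all genes, 30.8% and 22.3%). The share of UMIs from ribosomal protein genes was also lower than in leptomeningeal nuclei in each of the 6 replicates (0.316 to 0.526% against 0.417 to 0.650%), and its part in these differences was not tested. Of 13 mitochondrially encoded genes, whose RNA in nuclei comes from outside them, 7 passed the filter and 0 were called. Their log2 differences ran from -0.32 to 0.07 (edgeR), and 0 of the 7 had an unadjusted p under 0.05. Against the nuclei of neither class, 1 of 7 was higher and 0 lower (median log2 0.35), beside 22.3% and 30.8% of all genes.

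**Figure D4:**
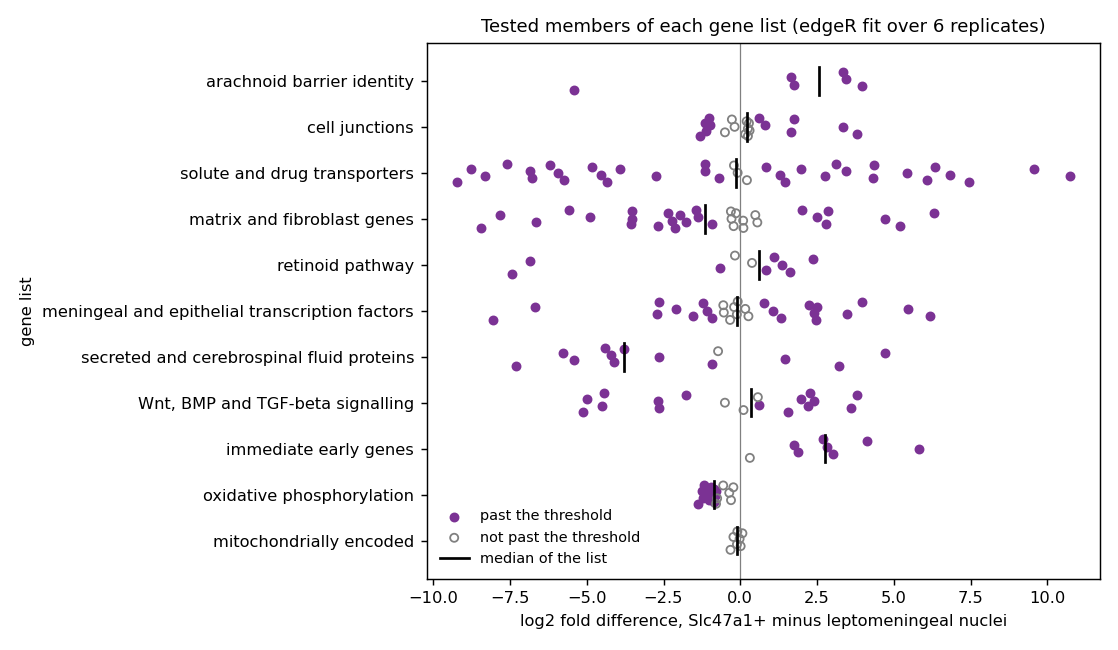
Log2 fold difference between Slc47a1+ and leptomeningeal nuclei (x axis; edgeR, 6 replicates) for the tested members of 11 gene lists (y axis); filled points passed an adjusted p under 0.01 and a fold of 1.5, open points did not, and the line marks the median of the list. Immediate early genes lie to the right (median 2.76), secreted proteins (-3.78) and matrix genes (-1.15) mostly to the left, and transporters spread to both sides.

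By level, the most abundant genes that were higher than in both other groups were Foxp1 and Slc4a10 (above), followed by Fbxl7, an F-box protein of the ubiquitin system, at 4546 to 5975 CPM against 316 to 599. Kcnb2, a voltage-gated potassium channel, stood at 3743 to 5765 CPM against 73.9 to 407, and Pcdh7, a protocadherin, at 3415 to 5031 against 98.7 to 281 (log2 4.80 and 4.42, edgeR). Both are known from neurons. The neuronal marker sum was 127 to 683 CPM in Slc47a1+ nuclei and 561 to 2346 CPM in leptomeningeal nuclei. However, the rule limited neuronal UMIs in the first class and not in the second, where 127 nuclei had more than 1. A fit with the same limits on both classes is given above as counts of genes. Apart from it, the part of neuronal RNA in Kcnb2 and Pcdh7 was not tested. Msi2, an RNA-binding protein, and Gpc6, a glypican, were at medians of 3702 and 3340.0 CPM against 789 and 1445. Ank2, ankyrin B, was higher by 1.62-fold, with ranges of 2530.4 to 4592 and 1961 to 2781 CPM that overlapped.

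Between domains, the number of genes called in Slc47a1+ nuclei depended on the fit. Of 6292 genes tested, 1 (0.0159%) passed an adjusted p under 0.05 in edgeR's quasi-likelihood test, while 480 had an unadjusted p under 0.05. With the replicate block the same test called 38 genes, of which 7 had the higher level in aplCoA and 31 the lower. The 1 gene was Kctd8, a subunit of GABA-B receptors, at 101, 130 and 138 CPM in aplCoA and 21.0, 11.4 and 28.9 CPM in pplCoA (log2 2.53, SE 0.333, adjusted p = 0.0473). The domains did not overlap, which a choice by the lowest p makes likely. The call was lost without any of 5 of the 6 replicates (edgeR, adjusted p up to 0.478, without pplCoA replicate 1). It was also lost with doublets removed (edgeR, adjusted p = 0.0895), and was kept without aplCoA replicate 2. The log2 difference was 2.28 to 2.83 without single replicates and 2.78 with doublets removed. Free RNA held 45.6 CPM of Kctd8, above the pplCoA values. Slc47a1 itself, which the rule used, was at 1935, 1927 and 2020.1 CPM in aplCoA and 1894, 2250.5 and 2155 in pplCoA.

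The genes next in order were not called by the quasi-likelihood test on all Slc47a1+ nuclei, but passed under other settings. By edgeR's likelihood ratio test all 11 had an adjusted p under 0.05, the highest being 0.0291 for Slc2a13. By DESeq2 and with the replicate block in the quasi-likelihood test, the adjusted p was 0.0287 and 0.0147 for Bche, 0.00701 and 0.00600 for Dok6, 0.000573 and 0.00583 for Xylt1, and 0.000573 and 0.00540 for Ptprz1. With the block alone, Agtr1b (0.0414), Abtb2 (0.0494) and Gm32036 (0.0486) passed too in edgeR. Free RNA held 311 CPM of Dok6, 321 of Elmo1, 395 of Ptprz1, 193 of Xylt1, 35.2 of Gm32036 and 693 of mt-Co1. These levels lay within or above the values of the same genes given below, and the part of free RNA in them was not tested. Bche, butyrylcholinesterase, was at 357, 404 and 443 CPM in aplCoA and 147, 142 and 236 in pplCoA (log2 1.19, edgeR, adjusted p = 0.247). Dok6, an adaptor of receptor tyrosine kinases, was at 521, 773 and 899 against 249, 142 and 346 CPM, and Agtr1b, an angiotensin II receptor, at 130, 264 and 198 against 73.5, 51.3 and 77.0. In all 3 genes the lowest aplCoA value lay above the highest pplCoA value. A choice by the lowest p makes this likely, so it is a description and no support. The share of all tested genes without overlap is not given here. Slc2a13, an inositol carrier, was at 543, 768 and 722 against 361, 342 and 375 CPM. mt-Co1 was at 112, 117 and 107 against 56.0, 34.2 and 38.5 CPM, and leptomeningeal nuclei of the same pools had 106, 99.7 and 123 against 50.6, 20.5 and 40.2. The mitochondrial share of UMIs was higher in aplCoA in Slc47a1+ nuclei (0.0406 to 0.0527% against 0.0207 to 0.0312%), and in both other groups (exact permutation test, p = 0.1 in each, the smallest possible). Slc47a1+ nuclei of aplCoA were also deeper, with median UMIs of 3840.5 to 5102 in the replicates against 3696 to 3760 (p = 0.1 by the same permutation test), and the part of depth in these values was not tested.

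On the pplCoA side, Xylt1, which starts the sugar chains of proteoglycans, was at 252, 296 and 216 CPM against 77.4, 73.4 and 111 in aplCoA (log2 -1.53, edgeR, adjusted p = 0.0627). Ptprz1, a receptor phosphatase of glia, was at 203, 188 and 159 against 58.2, 9.78 and 45.2 CPM. Both are abundant in oligodendrocyte precursors, at 2741 and 2783 CPM, and astrocytes held 598 and 2047 CPM of them. The part of RNA from such cells in the values of these genes was not tested. Summed markers of oligodendrocyte precursors were at 508, 450 and 86.6 CPM in the Slc47a1+ nuclei of pplCoA and 114, 41.6 and 150 CPM in those of aplCoA. Within the main cluster, a choice made after seeing the data, the same sums were 56.9, 6.70 and 23.0 against 37.2, 40.5 and 32.1 CPM. There the log2 difference of Xylt1 was -0.38 (edgeR, adjusted p = 0.840), and Ptprz1 no longer passed the filter. With doublets removed from the whole set, it was -1.08 for Xylt1 and -2.46 for Ptprz1 (edgeR, adjusted p = 0.606 and 0.204). Kctd8, Dok6 and Bche were called within that cluster, with log2 differences of 2.63, 1.80 and 1.17 (edgeR, adjusted p = 0.0184, 0.0128 and 0.0328), among 5 genes in all, each higher in aplCoA. Abtb2 was at 91.0, 96.9 and 120 against 36.4, 48.9 and 42.9 CPM in the whole set. Elmo1, a regulator of Rac, was at 459, 456 and 414 against 261, 230 and 250 CPM and overlaps the antisense gene Gm32036, which was also higher in pplCoA (98.0, 91.2 and 67.3 against 35.2, 17.1 and 31.6 CPM). Pard3bos1, antisense to another gene, was at 52.5, 85.5 and 62.5 against 22.4, 22.0 and 28.6 CPM.

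**Figure D5:**
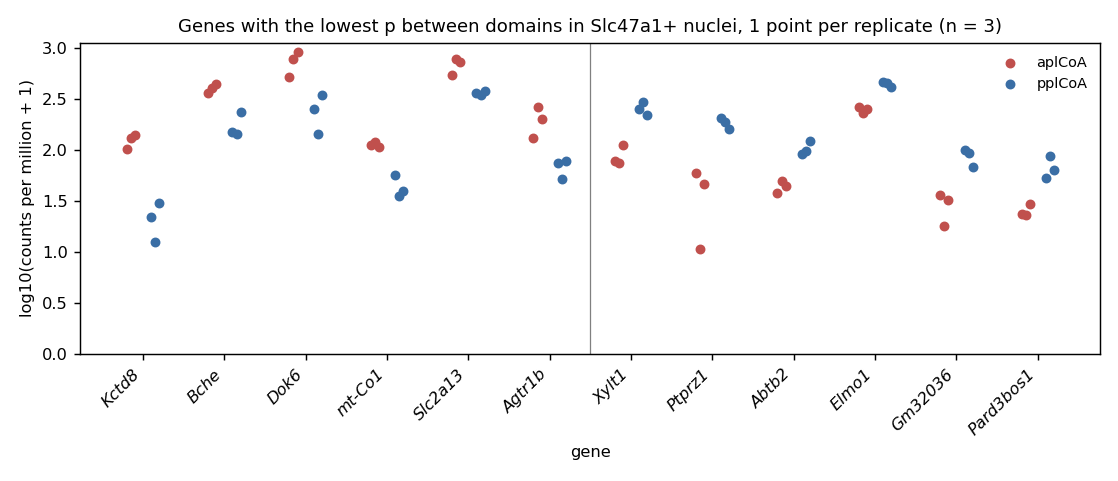
Level of the 6 genes with the lowest p in each direction between domains in Slc47a1+ nuclei, as log10(CPM + 1), with 1 point for each of 3 replicates of aplCoA (red) and pplCoA (blue). Genes left of the line were higher in aplCoA and genes right of it higher in pplCoA; only Kctd8 passed the threshold (edgeR, adjusted p = 0.0473).

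In the gene lists, 0 members were called between domains by edgeR in any of the 11 lists. The list medians ran from -0.52 to 0.33 on the log2 scale, apart from immediate early genes (1.25, 9 tested) and mitochondrially encoded genes (0.93, 6 tested), both towards aplCoA. Whether a domain difference was itself different between Slc47a1+ and leptomeningeal nuclei was tested by an interaction term: 0 of 7190 genes passed by edgeR's quasi-likelihood test (lowest adjusted p = 0.153), 378 had an unadjusted p under 0.05, DESeq2 called 2 and the likelihood ratio test 11.

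Within the main cluster of 819 nuclei, some genes varied together from nucleus to nucleus. The genes of this paragraph were chosen after their values were seen and none was tested. Kcnq5, a potassium channel, correlated with Lsamp, an adhesion protein (Pearson's r = 0.454 over nuclei, which share libraries and depth), Dok6 (0.451), Fgf14 (0.405) and Kctd8 (0.359), though in single replicates the lowest values of the same 4 pairs were 0.0334, 0.0490, -0.0577 and 0.00471. At least 2 Kcnq5 UMIs were found in 127 nuclei. In aplCoA they made up 15.1%, 17.9% and 19.9% of the replicates (50, 12 and 56 nuclei). In pplCoA they made up 5.66%, 2.56% and 10.6%, which rest on only 3, 1 and 5 nuclei. The 127 nuclei had 343 CPM of Kctd8, 1422 of Dok6 and 1087 of Lsamp, against 59.7, 488 and 227 in the others. Of 5 neuronal markers, Rbfox3, Snap25 and Grin1 were at 16.9, 55.7 and 13.5 against 15.8, 52.9 and 9.61 CPM, and Syt1 and Nrgn at 67.5 and 65.9 against 85.8 and 94.4. Median depth was 4202 against 3927 UMIs. Chrm3, a muscarinic receptor, was present with at least 2 UMIs in 453 nuclei. These nuclei also held more of the genes above, with 427 against 172 CPM of Kcnq5, 153 against 43.9 of Kctd8 and 722 against 539 of Dok6. Chrm3 correlated with Adamtsl1 (r = 0.336) and negatively with Col25a1 (r = -0.324, and -0.485 to -0.228 in single replicates). Col25a1 was at 2473 CPM in these nuclei and 4619 CPM in the others, and the share of nuclei with 2 Chrm3 UMIs ran from 48.7% to 58.5% over the replicates. Nuclei with Chrm3 were also deeper, with a median of 4178 against 3696.5 UMIs.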

How the data were processed

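The authors made the deposited counts: UMIs per gene and barcode for each of 7 libraries (10x Genomics 3' v3.1), from Cell Ranger 5.0.0 and the mm10 genome in the submitters' processing notes. Barcodes had not been filtered, and 17443221 of them held 575882324 UMIs. Of these, 52201 had at least 1000 genes, and 1086 with over 30000 UMIs were left out. Gene positions came from GENCODE vM21 (GRCm38), and 78 gene rows share a symbol with another. The rule, the gene lists and the tests were chosen with earlier results of these data known.

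Doublets were scored per library by simulated doublets and kept, with removal as an alternative. In each library the highest scores were marked, up to a fixed share of 1% per 1000 nuclei. Nuclei were clustered by the Leiden method (resolution 1). Counts were summed per class and replicate. Genes seen in at least 10% of nuclei of a class were fitted with edgeR's quasi-likelihood test (TMM scaling, Benjamini-Hochberg). The class fits held the replicate as a block, since both classes came from the same pools, and the domain fit did not. Class calls needed an adjusted p under 0.01 and a fold of 1.5, and domain calls an adjusted p under 0.05. Shares were fitted on the logit scale with limma and tested by exact permutation, two-sided. The steps were tested on simulated data.

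Named genes were the 12 called genes with the largest fold in each direction against leptomeningeal nuclei (the same direction in all 6 replicates, at least 20 CPM in the higher class), the 10 most abundant that were higher than both other groups, the 6 with the lowest p in each direction between domains, and up to 5 by level and 4 by fold in each list. Further list members were named after their values were seen. DESeq2, a likelihood ratio test, other scaling, no filter, single replicates left out and other limits were the alternatives. Versions were R 4.3.3, edgeR 4.0.16, limma 3.58.1, DESeq2 1.42.0, Python 3.11.15, numpy 2.4.6, scipy 1.17.1, scikit-learn 1.9.0 and leidenalg 0.10.2.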

Additional observations from a re-analysis of the deposited data

Results flagged for a closer look

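Barcodes with more than 30000 UMIs entered no comparison, and the number with Slc47a1 is given because it exceeds 3. Of 1086 such barcodes, 5 had at least 2 Slc47a1 UMIs, a share of 0.460% with a 95% Wilson interval of 0.197% to 1.07%. The share that free RNA alone would give in barcodes of this depth was not measured. None of the 5 met the other limits of the rule: 0 barcodes over the UMI limit passed all of them.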

How the results depend on the processing

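The higher share of Slc47a1+ nuclei in aplCoA kept its direction in all alternatives run, with logit differences of 0.93 to 1.23 when single replicates were left out (limma, adjusted p = 0.00419 to 0.0548), and the call was lost only without pplCoA replicate 2 (1.08). The share of Slc47a1+ nuclei among both meningeal classes differed by 2.21 to 15.9 points and median depth by 69.7 to 174 UMIs when replicates were left out. The count of 1 gene between domains moved most: 7 by DESeq2, 22 by the likelihood ratio test, 182 with no filter, 2 with doublets removed, 0 with at least 3 Slc47a1 UMIs, 0 at an adjusted p under 0.01 and 1.5-fold, 0 with either library of aplCoA replicate 1 alone, 0 to 3 with single replicates left out, and 5 in the main cluster, a setting added after seeing the data. The count of 0 for the interaction became 2 by DESeq2, 11 by the likelihood ratio test, 41 with no filter, 1 with doublets removed and 0 to 1 with replicates left out. With no filter, 4169 genes differed from leptomeningeal nuclei and 7963 from the nuclei of neither class. Egr1, at 0.31 against leptomeningeal nuclei (log2), turned to -0.69 by DESeq2, -0.53 by the likelihood ratio test and -0.31 without aplCoA replicate 1 (-0.31 to 0.52 with single replicates left out), and the cause was not tested. Of the other values of named genes in that comparison, 1420 kept direction and call and 11 lost the call. Only 43 to 69 nuclei stood behind 4 of the 6 replicates, which limits the precision between domains.

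The labels number the replicates within each domain and do not say that equal numbers pair the domains. Deviations of same-numbered samples correlated weakly, at 0.170, 0.184 and 0.0255 over 6292 genes, which does not settle whether they were paired. The highest correlation with another number was lower for replicates 1 and 2 (-0.071 and 0.032) and higher for replicate 3 (0.195). With the replicate block, 38 genes were called between domains (7 higher in aplCoA, 31 in pplCoA), 1 of them shared with the unblocked fit, and the share differed by 1.08 (limma, adjusted p = 0.00735; exact paired permutation p = 0.25, the smallest possible). For the share of Slc47a1+ nuclei among both meningeal classes the exact paired permutation p was 0.5. For the interaction, a replicate block by class beside the term for each pool, added after seeing the data, called 1 gene.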
